A study of Drosophila melanogaster with 12 samples.

Results

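The genes described here encode the voltage-gated and potassium channels of *Drosophila melanogaster*, with the auxiliary subunits that accompany them. They were listed by function and not by a measured value, although earlier results of these data were known when the list was made. Each was matched by its FlyBase symbol to a gene in the count tables. The list held 34 genes of the 17510 counted. It comprised 8 genes of sodium channels, 5 of calcium channels, 6 of Kv-type potassium channels, 4 of the EAG and KCNQ types, 3 of potassium channels opened by calcium or sodium, 1 of the hyperpolarization-activated HCN type, 3 inward rectifiers and 4 tandem-pore (K2P) leak channels. Of these, 25 encode the pore itself and 9 an auxiliary protein.

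Sodium channels drive the upstroke of the action potential, voltage-gated calcium channels open at the presynaptic terminal to release transmitter, and potassium channels bring the membrane back to rest and set the firing rate. Leak channels and inward rectifiers hold the resting potential and are found in glia, muscle and epithelia as well as in neurons. Several of these genes, such as *para*, *Sh* and *slo*, were found through mutant flies that shook, were paralysed by heat or failed to fly.

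RNA-seq was performed on mRNA of central nervous systems (CNSs) dissected from larvae of the third instar, raised at 25 °C, to ask which genes change when an insulator protein is lost. CTCF0 mutants lack the zinc-finger protein CTCF, including the share normally inherited from the mother, and were obtained from mothers whose *CTCF* rescue transgene was excised in the germline. Cp190KO mutants carry 2 independent alleles that delete the open reading frame of *Cp190*, which encodes a cofactor of CTCF. The maternal share of Cp190 was not removed from them, and the study proposes that it may rescue early defects. Each mutant had its own control of wildtype (WT) larvae of strain w1118, no larva was treated, and each of the 4 groups had 3 libraries of 60 pooled CNSs, so 12 libraries in all. The libraries of the CTCF0 experiment were read as paired ends and those of the Cp190KO experiment as single ends on another instrument, so levels in the 2 experiments are set side by side and not tested. The labels number the replicates and do not say how the pools of larvae were raised, so p-values measure the spread between these pools.

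Between 11652548 and 21522453 reads per library were counted on genes, of which 10387 to 31699 fell on the 34 channel genes. *CTCF* had 483 to 693 counts in WT and 23 to 39 in CTCF0. *Cp190* did not separate its groups, with 399 to 963 counts in WT and 439 to 871 in the libraries labelled Cp190KO. The genotype of each library in that experiment therefore rests on its label, and so does every size, p-value and call. Every direction would turn if its WT and Cp190KO labels were exchanged, and the *Cp190* counts would still overlap. Of the libraries labelled Cp190KO, replicate 3 held 375 genes with 1 to 3 counts, against 1738 to 2199 in the other 11 libraries. Markers of neurons, neuroblasts and glia were detected in every library.

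The channel genes are long, and long genes were not counted alike in all libraries. Among the channel genes the exonic length, taken as the union of all exons, ran from 1586 bp in *TEH3* to 22801 bp in *Sh*, with a span on the chromosome of up to 138941 bp. The median exonic length of the channel genes tested was 5812 bp in the CTCF0 experiment and 5351 bp in the Cp190KO experiment, against 2242 and 2252 bp over all genes tested. In both experiments 16 of the channel genes lay among the longest 10% of genes. Over these longest genes, the median log2 deviation from the mean over 6 libraries was -0.51 in CTCF0 replicate 2 and 0.44 in CTCF0 replicate 3. In the libraries labelled Cp190KO it was 0.83 in replicate 1, -0.74 in replicate 2 and 0.19 in replicate 3. The WT libraries lay between -0.29 and 0.17. Long genes were therefore high in one mutant library of each experiment and low in another.

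**Figure D1:**
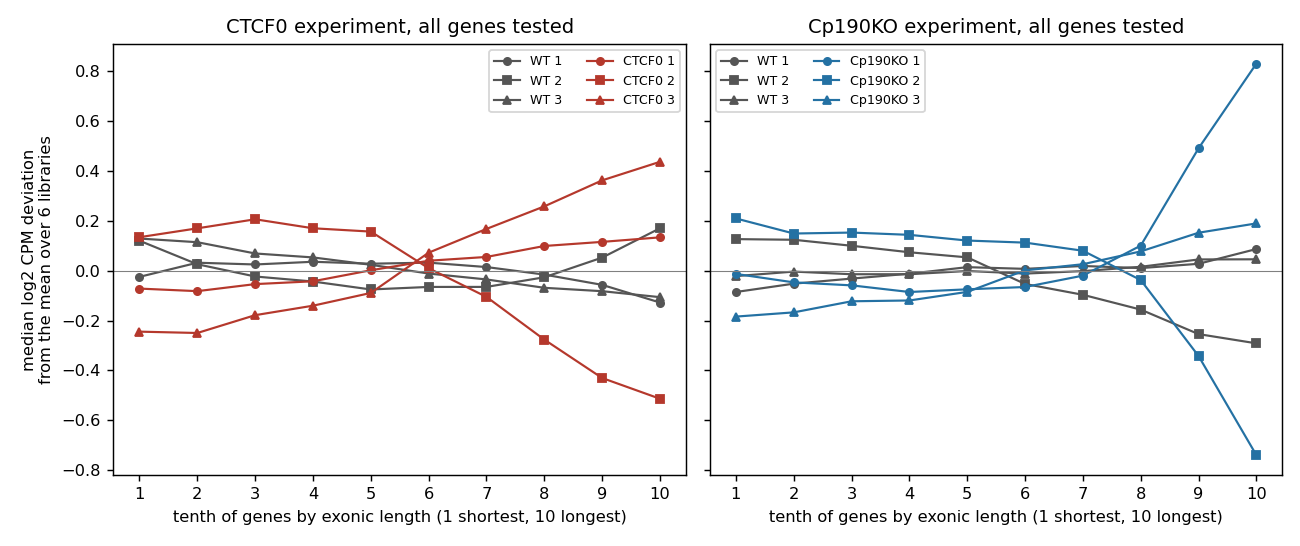
Median log2 deviation of the normalized count (CPM) from the mean over 6 libraries, in 10 equal bins of exonic length (1 shortest, 10 longest), for all genes tested. Each line is 1 library. In the bin of the longest genes CTCF0 replicate 3 and Cp190KO replicate 1 are high, at 0.44 and 0.83, and CTCF0 replicate 2 and Cp190KO replicate 2 are low, at -0.51 and -0.74.

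The channel genes followed the same libraries. They took 0.229% of the reads on genes in CTCF0 replicate 3, 0.155% in replicate 1 and 0.0893% in replicate 2, against 0.102% to 0.151% in WT. In the libraries labelled Cp190KO they took 0.147% in replicate 1, 0.0561% in replicate 2 and 0.110% in replicate 3, against 0.0789% to 0.0918% in WT. Both sets of mutant libraries thus reached above and below the WT range. Of 32 channel genes tested in the CTCF0 experiment, 27 had their highest value in CTCF0 replicate 3 and 19 their lowest in CTCF0 replicate 2, whereas 32.4% of all genes were highest and 33.4% lowest in these libraries. Of 33 tested in the Cp190KO experiment, 26 were highest in replicate 1 and 23 lowest in replicate 2 of the libraries labelled Cp190KO, against 26.1% and 20.7% of all genes.

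Within a genotype, the highest library of a channel gene was a median of 2.46 times the lowest in CTCF0 and 1.49 times in its WT control. The same ratio was 3.69 among the libraries labelled Cp190KO and 1.39 in their WT control. The mutant libraries were further apart than the WT libraries for all 32 genes in the first experiment and for 31 of 33 in the second, where the same held for 76.4% and 71% of all genes tested. Among the mutant libraries, summed CPM of 7 neuronal markers was lowest and highest where most channel genes were. It ran from 972 in CTCF0 replicate 2 to 2014 in replicate 3, against 1225 to 2052 in WT, with WT replicate 2 above every CTCF0 library. It ran from 418 in replicate 2 to 1917 in replicate 1 of the libraries labelled Cp190KO, against 676 to 958 in WT. Between genotypes, the median log2 fold change of these markers was 0.02 in CTCF0, against 0.45 for the channel genes. In the libraries labelled Cp190KO it was 0.54, against 0.42. None of the neuronal markers was at or under 3 counts in all libraries of an experiment, and their part in the result was not tested.

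**Figure D2:**
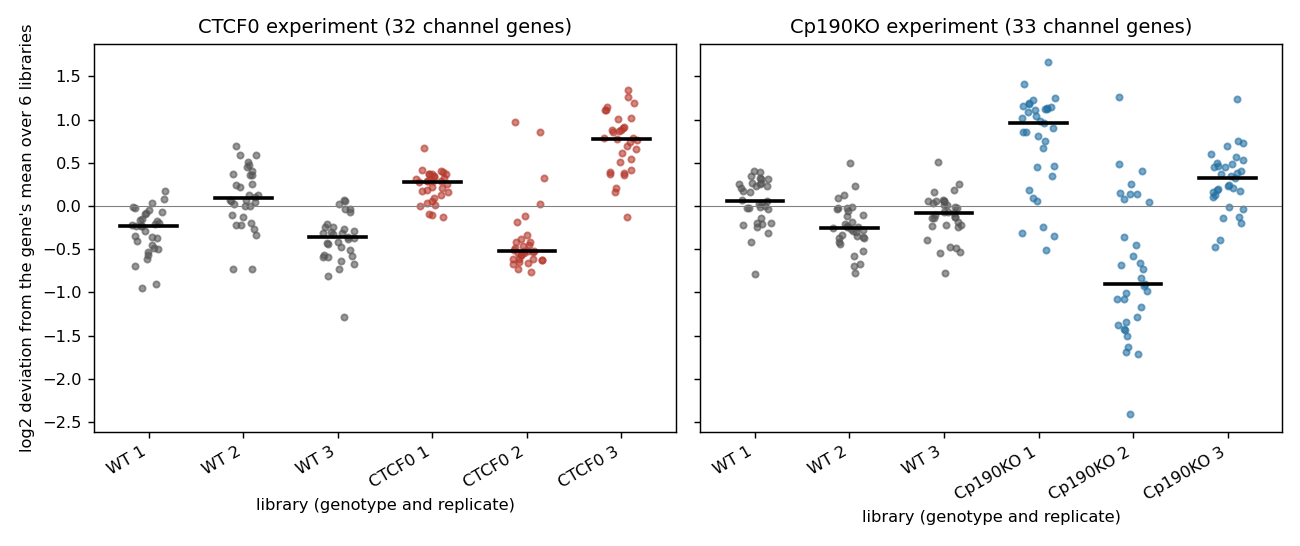
Log2 deviation of each channel gene's normalized count from its own mean over the 6 libraries of an experiment, by library. Each point is 1 gene and each bar the median. The median is -0.52 in CTCF0 replicate 2 and 0.78 in replicate 3, and -0.91 in Cp190KO replicate 2 and 0.96 in replicate 1, so replicates of a mutant differ by more than the genotypes.

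An offset that removes the smooth trend of each library with exonic length narrowed this scatter. The span between the lowest and the highest library median of the channel genes went from 1.30 to 0.63 on the log2 scale in the CTCF0 experiment, and from 1.87 to 0.27 in the Cp190KO experiment. The offset was fitted on all genes tested, the channel genes among them. With it, 21 of 32 were still highest in CTCF0 replicate 3, against 25.4% of all genes. In replicate 1 of the libraries labelled Cp190KO, 13 of 33 were still highest, against 20.8%. Each comparison is given with this offset as well. In bulk CNSs, fewer cells of a type and less RNA per cell cannot be told apart.

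In WT CNSs the channel genes covered a wide range of levels. Divided by exonic length, the highest was the leak channel gene *Task7*, with 69.5 ± 2.27 CPM per kb (SD, n = 3) in the WT control of CTCF0 and 50.4 ± 3.85 in that of Cp190KO. It was set apart from the next gene by more than the sum of both SDs in each control. The sodium leak channel gene *na*, with 22.3 ± 4.79 and 10.7 ± 0.823 CPM per kb, and the leak channel gene *Task6*, with 17.7 ± 3.15 and 10.02 ± 1.38, were the next genes in rank in the WT control of CTCF0. In the WT control of Cp190KO, *Irk3* (13.3 ± 3.55), *na*, *Task6*, *Irk2* (9.61 ± 3.15), *Shal* (8.97 ± 1.42) and *qvr* (8.31 ± 1.56) followed each other with gaps smaller than their SDs. The classical channel genes lay in the middle. *Sh* had 7.46 ± 2.04 and 4.06 ± 0.600 CPM per kb, *para* 5.27 ± 2.53 and 2.64 ± 0.340, and *cac* 4.66 ± 0.941 and 3.09 ± 0.292. From rank 4 to rank 29 in the WT control of CTCF0, no gene stood apart from the next lower one by more than the sum of their SDs.

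At the low end, *Irk1* had 0 to 9 counts in any library and was not tested in either experiment. Its level was 0.035 ± 0.0047 and 0.031 ± 0.019 CPM per kb in the WT controls, and 61% of its exonic bases are shared with *CG46310* on the same strand, so reads there may have been left uncounted. *sand* had 10 to 27 counts in the CTCF0 experiment and did not reach 1 CPM in 3 libraries there. Of the 34 genes, 11 share some exonic sequence with another annotated gene, and 6 share over 10%. These are *Irk1*, *KCNQ*, *tipE*, *sei*, *TEH3* and *Irk3*, whose levels are uncertain to that extent, since the strand setting used in counting is not given in the sources used here.

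**Figure D3:**
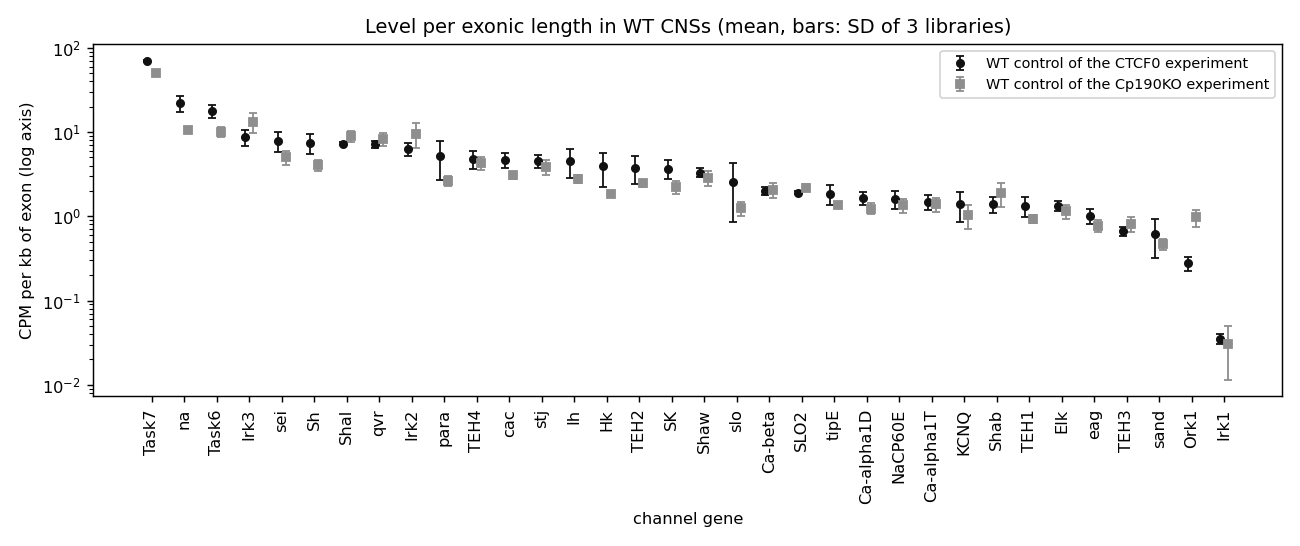
Normalized count per kb of exon of the 34 channel genes in WT CNSs, on a log axis, as mean and SD of 3 libraries, for the control of each experiment. *Task7* is highest at 69.5 and 50.4 CPM per kb, *Irk1* is lowest at 0.035 and 0.031, and *Ork1* is the gene whose 2 controls are furthest apart in ratio.

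In CTCF0 CNSs, 1 of the 32 channel genes tested was differentially expressed (DE), the leak channel gene *Ork1*. A call required both a fold change above 1.5 and a p-value below 0.05 in the quasi-likelihood test of edgeR, after Benjamini-Hochberg adjustment across the genes tested, and 2.81% of all genes passed. Log2 fold changes of the channel genes ran from -0.20 to 1.93 with a median of 0.45, against 0.01 over all genes. They were positive for 27 and negative for 5, where 51.2% of all genes were positive. Without CTCF0 replicate 3 the median was 0.08, and without replicate 2 it was 0.67. With the length offset it was 0.34, and 24 were positive.

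*Ork1* (FBgn0017561, chromosome X, 10878054 to 10891250 in dm6) encodes an open rectifier, a potassium leak channel that slows the heartbeat of the fly. It had 1.30, 1.47 and 0.998 CPM in the WT libraries and 3.86, 4.75 and 5.81 CPM in the CTCF0 libraries, from 14 to 23 and 63 to 80 counts. Every CTCF0 library was above every WT library. The mean rose from 1.25 ± 0.237 to 4.81 ± 0.978 CPM (SD, n = 3). The corresponding log2 fold change was 1.93 with a standard error of 0.29 (adjusted p = 0.0086, edgeR). With the length offset the change was 1.88 (adjusted p = 0.0108). The log2 fold change lay between 1.77 and 2.05 when any 1 library was left out, but the call was lost without WT replicate 1 (adjusted p = 0.0673) or WT replicate 3 (adjusted p = 0.0572, edgeR). WT replicate 3 was under 1 CPM, so *Ork1* reached 1 CPM in 3 libraries only with the CTCF0 libraries, in which it was high. Its p-values above and its place in the counts of genes are therefore a description. With no filter beyond 1 count *Ork1* was also called, with a change of 1.92 (adjusted p = 0.0016, edgeR), where 2.69% of all genes were.

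The level of *Ork1* in the other experiment is set beside this change and not tested, since read type and instrument differed. There the WT libraries held 4.78, 5.12 and 3.24 CPM, a range that overlaps that of the CTCF0 libraries. Markers of muscle were also higher in CTCF0, all 6 with a positive change, 1 of them called and 3 at an unadjusted p under 0.05. Over all genes 51.2% were positive, 2.81% were called and 12.1% had such a p-value. The muscle markers summed to 51.3 to 65.2 CPM, against 25.8 to 37.8 CPM in WT. The called marker was *Mlc2*, a myosin light chain of muscle, with a log2 fold change of 1.498 (adjusted p = 0.0306, edgeR). Summed CPM of 6 glial markers was 662 to 1015 in CTCF0 and 435 to 609 in WT, with 0 called and 3 at an unadjusted p under 0.05. For 3 hemocyte markers the sums overlapped, with 128 to 176 in CTCF0 and 97.4 to 139 in WT. Of these, 2 were tested, 0 were called and 1 had an unadjusted p under 0.05. In the WT control of Cp190KO, where *Ork1* was higher, the muscle markers summed to 55.5 to 77.0 CPM. The part of muscle, glia and hemocytes in the level of *Ork1* was not tested.

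The inward rectifier gene *Irk2* (FBgn0039081, chromosome 3R, 23513617 to 23519445) was the next by p-value. Its channel passes potassium into the cell, and its loss disturbs wing growth. It had 15.6, 13.3 and 18.7 CPM in WT and 29.0, 39.9 and 25.5 CPM in CTCF0. Every CTCF0 library was above every WT library, and the highest was replicate 2, in which most channel genes were lowest. The log2 fold change was 0.99 with a standard error of 0.23, which missed the threshold (adjusted p = 0.0702, edgeR). *Irk2* passed with DESeq2's Wald test (adjusted p = 0.0062), which called *Irk2* and *Ork1* among the channel genes and 4.50% of all genes. It also passed without CTCF0 replicate 2 or replicate 3, and it changed by 0.95 with the length offset (adjusted p = 0.059). *Irk3*, the other inward rectifier tested, had a change of 0.50 ± 0.24 (standard error).

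In all, 3 channel genes had every CTCF0 library above every WT library, *Ork1*, *Irk2* and *TEH3*, and 0 had every one below, whereas 10% and 7.35% of all genes did. With 3 libraries against 3, an exact permutation test of a single gene cannot go below p = 0.1. An unadjusted p under 0.05 was reached by 4 of 32, *Shab* being the other, against 12.1% of all genes. *TEH3* and *Ork1* passed the filter through the CTCF0 libraries, in which they were high, so their place in these counts is a description.

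**Figure D4:**
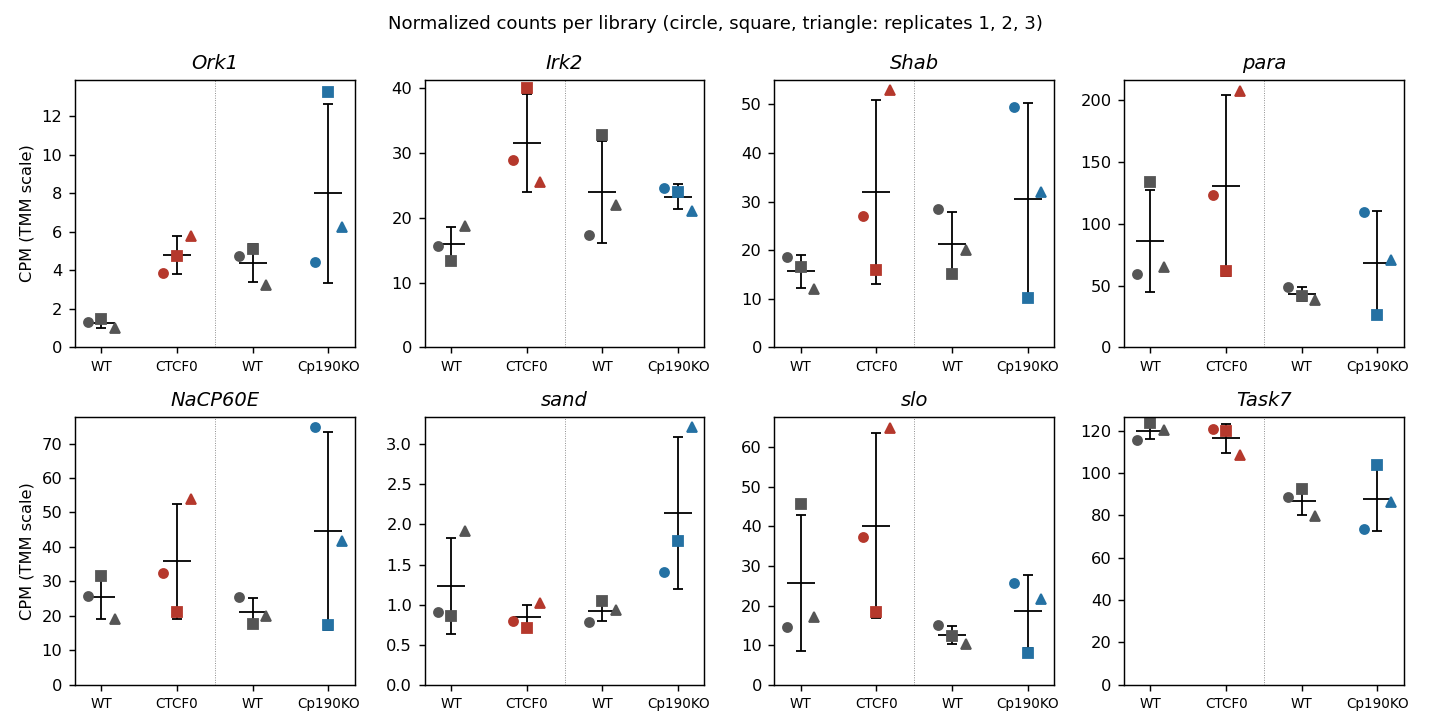
Normalized counts (CPM) of 8 channel genes in the 12 libraries. Circles, squares and triangles are replicates 1, 2 and 3, bars give the mean and SD of 3 libraries, and a dotted line parts the experiments. *Ork1* and *Irk2* do not overlap between WT and CTCF0, while *Shab*, *para*, *NaCP60E* and *slo* are high in CTCF0 replicate 3 and in Cp190KO replicate 1, and *Task7* is nearly level.

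Genes of the sodium channels showed the scatter of the libraries. The median log2 fold change of the 8 was 0.48, between -0.17 and 0.88, and 0 were called. *para* (FBgn0285944, chromosome X, 16455027 to 16533096), the sole gene of the classical sodium channel, had 59.5, 134 and 64.7 CPM in WT and 123, 61.5 and 208 CPM in CTCF0. The groups overlapped, with CTCF0 replicate 2 near the lowest WT library. The change was 0.61 ± 0.46 (standard error, adjusted p = 0.739, edgeR). *TEH3*, an auxiliary subunit related to *tipE*, had 0.959, 1.21 and 0.998 CPM in WT and 1.59, 1.28 and 2.98 CPM in CTCF0. These groups did not overlap, although replicate 2 exceeded the highest WT library by little, and 14.4% of its exonic bases are shared with *TEH2*. WT replicates 1 and 3 were under 1 CPM, so *TEH3* passed the filter through the CTCF0 libraries, in which it was high, and its values are a description. The change was 0.88 ± 0.38 (adjusted p = 0.40). *TEH4*, another of these subunits, had a change of 0.82 ± 0.39, and *tipE*, which stabilizes the Para channel, one of -0.17 ± 0.33.

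All 5 calcium channel genes had positive values, between 0.40 and 0.69, with a median of 0.52, and 0 were called. *cac*, the presynaptic channel that triggers transmitter release, had 49.3, 68.5 and 48.8 CPM in WT and 79.0, 44.4 and 116 CPM in CTCF0. CTCF0 replicate 2 was below all WT libraries and the other mutant libraries were above them. The change of *cac* was 0.52 ± 0.33 (adjusted p = 0.646, edgeR) and 0.40 ± 0.12 with the length offset (adjusted p = 0.154). *Ca-alpha1T*, the low-voltage activated channel, had 0.66 ± 0.32 and, with the offset, 0.55 ± 0.13 (adjusted p = 0.0772).

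Of the Kv-type genes, *Shab* had the largest value. It encodes a delayed rectifier and had 18.6, 16.6 and 11.97 CPM in WT and 27.1, 16.02 and 52.9 CPM in CTCF0. Replicate 2 lay inside the WT range. The change was 1.03 ± 0.40 (adjusted p = 0.345, edgeR), and it was 0.46 without CTCF0 replicate 3. *Sh*, the A-type channel gene for which the family is named, had 147, 223 and 140 CPM in WT and 230, 123 and 340 CPM in CTCF0. Its groups overlapped, with a change of 0.44 ± 0.35 (adjusted p = 0.766). *Shal*, a somatodendritic A-type channel gene, had the smallest spread of the family, at 28.5 to 36.2 CPM against 31.7 to 34.2 CPM in WT. *Hk* and *qvr*, auxiliary proteins of the Sh channel, had 0.18 ± 0.40 and 0.61 ± 0.31.

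The remaining potassium channel genes and the HCN gene had no call either. *slo*, a large-conductance channel opened by calcium, had 14.7, 45.6 and 17.1 CPM in WT and 37.5, 18.4 and 64.8 CPM in CTCF0. WT replicate 2 exceeded 2 of the CTCF0 libraries, and the change was 0.65 ± 0.53 (adjusted p = 0.774, edgeR). *Ih*, the HCN channel gene, had 40.5, 82.0 and 49.96 CPM in WT and 65.9, 41.5 and 104 CPM in CTCF0. Its groups overlapped as well, with a change of 0.29 ± 0.37 (adjusted p = 0.875). The 4 genes of the EAG and KCNQ types lay between 0.00 and 0.58. *SK* and *SLO2*, channel genes of small conductance and of the sodium-activated type, had 0.43 and 0.05.

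The other leak channel genes tested, *Task7* and *Task6*, were not called, and their difference from *Ork1* was not tested. *Task7* had 116, 124 and 120 CPM in WT and 121, 120 and 108 CPM in CTCF0. The 6 libraries lay within a ratio of 1.14, the smallest among the channel genes in this experiment. The change of *Task7* was -0.04 ± 0.14 (adjusted p = 0.959, edgeR), with a sign that turned under one of the other scalings, as it did for *na* and *KCNQ*. *Task6* had the lowest value of all channel genes, -0.20 ± 0.27.

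**Figure D5:**
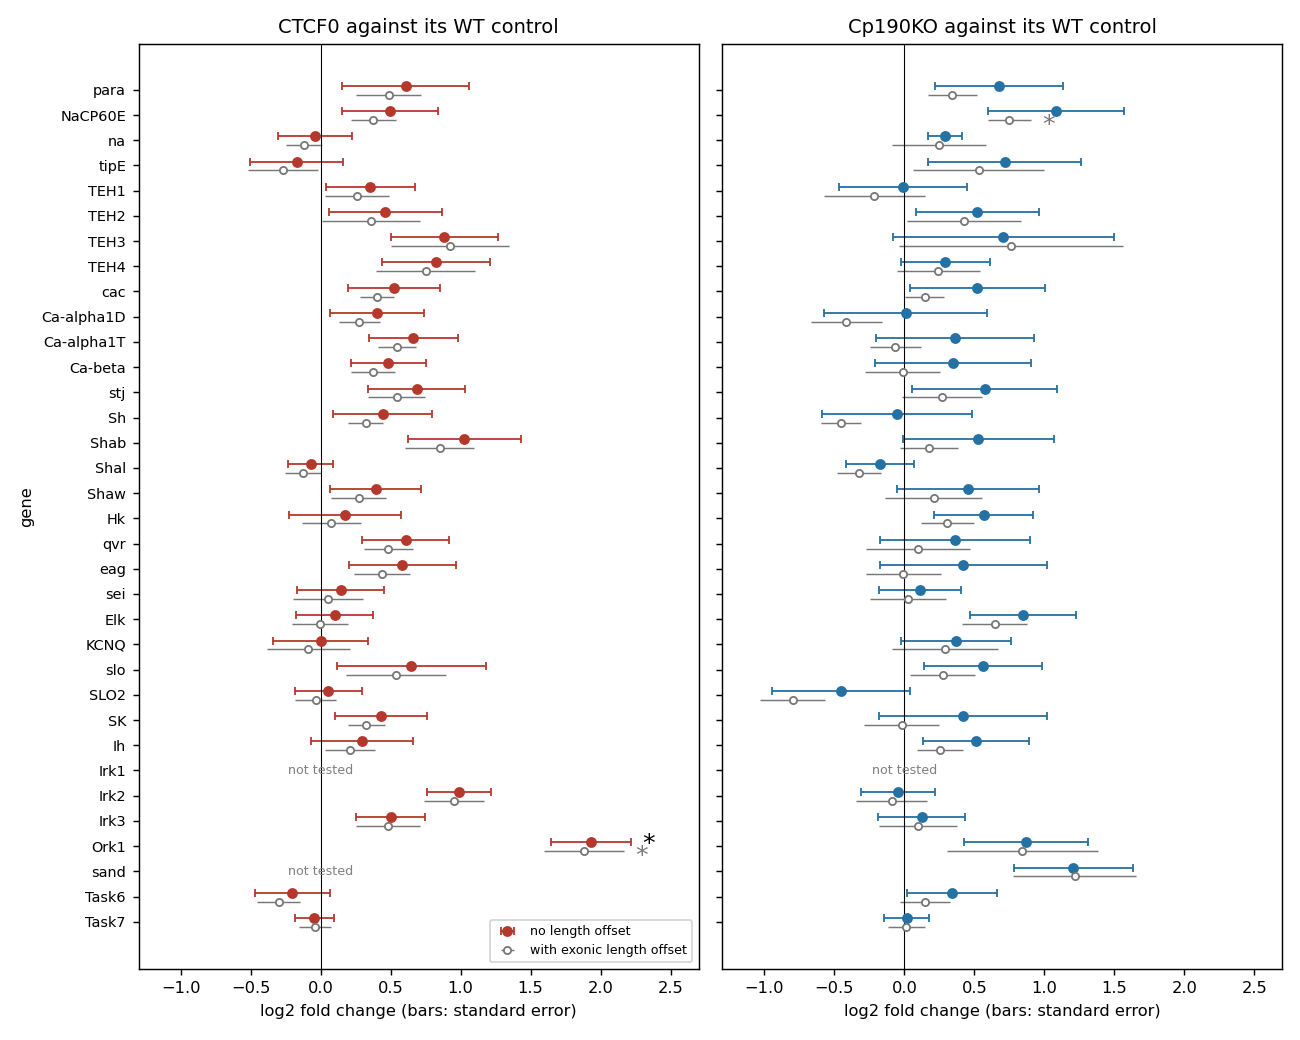
Log2 fold change of the channel genes in each mutant against its own WT control, with standard errors. Filled points are the values without and open points those with the exonic length offset, and asterisks mark calls. *Ork1* is called in CTCF0 with a change of 1.93, *NaCP60E* in Cp190KO only with the offset, at 0.75, and most other values are positive with bars that narrow under the offset.

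Taking the length offset changed the errors more than the calls in CTCF0. The median standard error of the channel genes was 0.33 without and 0.20 with it, and the error was smaller for 31 of 32. *Ork1* remained the 1 gene called, against 3.75% of all genes, while 11 of 32 then had an unadjusted p under 0.05, against 16% of all genes. When CTCF0 replicate 2 was left out, 7 channel genes were called, against 6.46% of all genes. These were *Ork1*, *Irk2*, *Shab*, *TEH4*, *Ca-alpha1T*, *stj* (an auxiliary alpha2delta subunit of calcium channels) and *qvr*. With the offset and without that library, *Ork1* and *qvr* were called, against 4.39% of all genes.

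In the libraries labelled Cp190KO, 0 of the 33 channel genes tested were DE, where 2.41% of all genes were. An unadjusted p under 0.05 was reached by *sand* and *na*, 2 of 33, against 13.1% of all genes, and DESeq2 called 0 of 33 with 3 at an unadjusted p under 0.05, against 5.12% of all genes called. Log2 fold changes ran from -0.45 to 1.21 with a median of 0.42, against 0.08 over all genes. They were positive for 28 and negative for 5, where 58.5% of all genes were positive. By the same labels 119 of all genes were called higher and 88 lower with edgeR, and 248 higher and 192 lower with DESeq2. The study itself reported the opposite split, 192 higher and 248 lower in the mutant. Exchanging the WT and Cp190KO labels would turn each of the counts made here and the sign of every change, so the direction of the channel genes is uncertain. Without Cp190KO replicate 1 the median was -0.02 and without replicate 2 it was 0.79, so the sign of the median rested on 1 library. With the length offset the median was 0.17.

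*sand* (FBgn0033257, chromosome 2R, 8091696 to 8096948), a leak channel gene of neurons that promote sleep, had the smallest p-value. It had 0.788, 1.05 and 0.934 CPM in WT and 1.41, 1.80 and 3.21 CPM in the libraries labelled Cp190KO. These libraries were all above WT, from 16 to 19 counts in WT and 30 to 58 in those labelled Cp190KO. The highest was replicate 3 of those labelled Cp190KO, the library with few genes of 1 to 3 counts. WT replicates 1 and 3 were under 1 CPM, so *sand* passed the filter through the libraries in which it was high. Its p-value and its place in the counts of genes are therefore a description. The log2 fold change of *sand* was 1.21 with a standard error of 0.43 (adjusted p = 0.28, edgeR), and it was 0.80 to 1.45 when any 1 library was left out. *na*, whose sodium leak channel drives the circadian pacemaker neurons, had 81.2, 91.7 and 79.9 CPM in WT and 106, 103 and 99.7 CPM in the libraries labelled Cp190KO. All 3 lay above WT, by a change of 0.29 ± 0.12 (adjusted p = 0.377). With the offset *na* had 0.25 ± 0.33, and the error was larger than without it. *sand* and *na* were the 2 channel genes with every library labelled Cp190KO above WT and 0 had every one below, where 9.87% and 9.92% of all genes did.

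*NaCP60E* (FBgn0085434, chromosome 2R, 24891614 to 24921677) encodes DSC1, a relative of the sodium channels. It had 25.6, 17.6 and 20.1 CPM in WT and 74.7, 17.5 and 41.7 CPM in the libraries labelled Cp190KO. Replicate 2 was level with the lowest WT library and the other libraries exceeded all of WT. The change of *NaCP60E* was 1.08 ± 0.48 (adjusted p = 0.416, edgeR). With the length offset it was 0.75 ± 0.15 and was called (adjusted p = 0.046), the 1 of 33 channel genes that passed, against 2.95% of all genes, and 5 of 33 then had an unadjusted p under 0.05, against 14.8%. This call did not survive the removal of any library in the fits with the offset, in which 0 of 33 were called each time. *Elk*, a potassium channel gene of the EAG type, had 6.89, 4.87 and 6.63 CPM in WT and 16.2, 6.17 and 10.8 CPM in the libraries labelled Cp190KO. Its replicate 2 fell inside the WT range, and the change was 0.85 ± 0.38 (adjusted p = 0.402).

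The genes that carry the main currents of the neuron overlapped between groups. *para* had 49.0, 41.9 and 38.1 CPM in WT and 109, 26.4 and 70.4 CPM in the libraries labelled Cp190KO. Replicate 2 was below and the others above all WT libraries, and the change was 0.68 ± 0.46 (adjusted p = 0.641, edgeR). *cac* had 40.4, 33.4 and 36.8 CPM in WT and 88.3, 19.2 and 51.1 CPM in those labelled Cp190KO. *Sh* had 106, 79.0 and 92.0 CPM in WT and 163, 29.8 and 73.8 CPM in those labelled Cp190KO. Both genes had the same order as *para* among the libraries labelled Cp190KO, although *Sh* in replicate 3 was under WT, and their changes were 0.52 ± 0.48 (adjusted p = 0.739) and -0.05 ± 0.53 (adjusted p = 0.973). *slo* had 15.1, 12.4 and 10.3 CPM in WT and 25.8, 8.02 and 21.7 CPM in those labelled Cp190KO. *Ih* had 39.3, 32.3 and 34.005 CPM in WT and 74.5, 24.0 and 52.0 CPM in those labelled Cp190KO. Their changes were 0.56 ± 0.42 (adjusted p = 0.68) and 0.51 ± 0.38 (adjusted p = 0.673). For 24 of 33 channel genes the range of the libraries labelled Cp190KO enclosed that of WT, against 33% of all genes. For CTCF0 this held for 16 of 32, against 39.3% of all genes.

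Shorter channel genes did not all follow one order. *TEH3*, the shortest at 1586 bp, had 1.58, 1.05 and 1.28 CPM in WT and 4.04, 0.24 and 2.05 CPM in the libraries labelled Cp190KO, from 86, 4 and 37 counts. This was the order of *para*, with the widest ratio of any channel gene, 16.9 between replicates 1 and 2. The sodium channel subunit genes *TEH2* and *tipE* had that order too, with 17.7, 4.85 and 12.4 CPM and 14.3, 2.63 and 10.7 CPM. Other genes departed from it. *Irk3*, with an exonic length of 2096 bp, was highest in replicate 2 of the libraries labelled Cp190KO at 39.3 CPM, against 19.7 and 31.8 CPM in replicates 1 and 3 and 19.4 to 33.5 CPM in WT. *Task7*, of 1727 bp, was also highest in replicate 2, with 73.4, 104 and 86.4 CPM against 79.7 to 92.6 CPM in WT. *Ork1*, of 4482 bp, had 4.46, 13.3 and 6.255 CPM in the libraries labelled Cp190KO. Its groups overlapped, and its change was 0.87 ± 0.44 (adjusted p = 0.48, edgeR). Muscle markers summed to 113 CPM in replicate 2, the library with the most *Ork1*, and to 43.8 and 55.1 CPM in replicates 1 and 3. Glial markers summed to 842 to 1211 CPM in the libraries labelled Cp190KO and 564 to 663 CPM in WT, and the part of either tissue was not tested. *Irk2* had 17.4, 32.7 and 21.9 CPM in WT and 24.6, 24.0 and 21.0 CPM in the libraries labelled Cp190KO, all inside the WT range.

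Leaving out replicate 2 of the libraries labelled Cp190KO gave 5 called channel genes, *para*, *NaCP60E*, *tipE*, *Hk* and *Ih*, against 3.75% of all genes. With the length offset and without that library 0 of 33 were called, against 3.35% of all genes, and 10 had an unadjusted p under 0.05, against 20.3% of all genes. The median standard error of the channel genes was 0.46 without and 0.27 with the offset when all libraries were kept. Values of the long genes under the offset spread to both sides of 0, with *SLO2* at -0.80 ± 0.23 (adjusted p = 0.145, edgeR) and *Sh* at -0.45 ± 0.14 (adjusted p = 0.178).

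The changes in the 2 mutants were compared by a test of their difference in a fit of all 12 libraries. CTCF0 larvae lack the maternal share of CTCF, while that of Cp190 was not removed from Cp190KO larvae. The test rests on the labels as well. If the WT and Cp190KO labels were exchanged, the change now subtracted would be added, and every difference and p-value below would be another. None of the 33 channel genes tested passed an adjusted p under 0.05, whereas 1.42% of all genes did. An unadjusted p under 0.05 was reached by *Irk2* and *sand*, 2 of 33 against 6.89% of all genes, and DESeq2 also called 0 of 33 with 2 at an unadjusted p under 0.05, against 2.38% of all genes called. *Irk2* changed by 1.05 more in CTCF0 on the log2 scale (standard error 0.36, adjusted p = 0.362, edgeR) and *sand* by 1.77 less, a difference of -1.77 (standard error 0.63, adjusted p = 0.392). *sand* did not pass the filter in the CTCF0 experiment and passed it in this fit mainly through the libraries labelled Cp190KO, in which it was high, so its value there is a description. *Ork1*, called in CTCF0 alone, had a difference of 1.07 with a standard error of 0.55 (adjusted p = 0.851, edgeR). With the labels as given, its change was thus not shown to differ between the mutants. *Elk* had -0.75 ± 0.47. The median difference was 0.08, against -0.05 over all genes. Of 32 channel genes tested in both comparisons, 23 had a positive value in both and 1 a negative value in both. Most were positive in each comparison alone, 27 of 32 and 28 of 33, so this count does not show agreement between the mutants. It also rests on the labels of the Cp190KO experiment.

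Other channel genes outside the list gave no call. Of 15, which include the *na* partners *unc79* and *unc80*, the *slo* binding protein gene *Slob* and further leak channel genes, 14 were tested and 0 were called in either comparison, where 2.81% and 2.41% of all genes were. An unadjusted p under 0.05 was reached by 2 in each, against 12.1% and 13.1% of all genes. Their median log2 fold change was 0.10 in CTCF0 and 0.29 in the libraries labelled Cp190KO, against 0.01 and 0.08 over all genes. DESeq2 called 0 of 14 in either comparison, with 2 at an unadjusted p under 0.05 in each.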

How the data were processed

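Members and gene lists were chosen with earlier results of these data known. The deposited values are read counts per gene made by the authors, who mapped reads to dm6 and to FlyBase gene models and counted them with HTSeq 0.9.1. No normalization or filter is stated for these counts. Replicate 3 of the libraries labelled Cp190KO held far fewer genes with 1 to 3 counts than the others, for a reason that was not tested. Lines that name no gene held 22.6% to 34.8% of reads and were left out. Symbols were matched to FlyBase gene IDs: 29 as listed and 4 after respelling, and *Ca-beta* by its position. Lengths and positions are from Ensembl annotation of BDGP6 (dm6), which lists 17406 of the 17510 genes.

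For each experiment, genes with at least 1 CPM in 3 or more of 6 libraries were kept (8718 and 8599), sizes were scaled by TMM, and edgeR 4.0.16 fitted a robust quasi-likelihood model in R 4.3.3. All 12 libraries in one fit tested the difference, at an adjusted p-value under 0.05 alone. Standard errors are the log2 fold change divided by the root of F. CPM are on the TMM scale of their own experiment. The length offset is a loess curve (span 0.5) of each library's log2 deviation on exonic length. A count of 3 equals 0.139 to 0.257 CPM, which covers counting error only. Scripts were tested on simulated data. Genes given library by library were those called, the 4 with the smallest p-values in each comparison, and *para*, *cac*, *Sh*, *slo* and *Ih*. *Irk3*, *Task7*, *Shal*, *TEH2* and *tipE* were added after their values were seen. Alternatives were other scalings, filters and thresholds, DESeq2 1.42.0, the replicate number as a block, and each library left out. The last of these with the offset was added after the data were seen. Python 3.11.15 and pandas 2.3.3 made the tables.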

Additional observations from a re-analysis of the deposited data

Results flagged for a closer look

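The change of *CTCF* differed between the mutants by -4.52 on the log2 scale, in the test of the difference over all 12 libraries. It is the gene deleted in CTCF0 and is no channel gene. No channel gene passed that test with the labels as given.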

How the results depend on the processing

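The cause of the following changes was not tested. For CTCF0, 245 DE genes became 119 at an adjusted p under 0.01, 392 with DESeq2 and 382 with no filter beyond 1 count. The 1 channel gene called became 2 with library totals only, with DESeq2 and with no filter, each adding *Irk2*. For Cp190KO, 207 DE genes became 64 at an adjusted p under 0.01, 440 with DESeq2 and 366 with all 12 libraries in one fit, and the 0 channel genes called became 1 with the length offset. For the difference, 127 DE genes became 50 at an adjusted p under 0.01 and 213 with DESeq2. When each library was left out in turn, with or without the offset, DE genes numbered 79 to 556 in CTCF0, 24 to 318 in Cp190KO and 69 to 141 in the difference. Channel genes called numbered 0 to 7, 0 to 5 and 0, and their median log2 fold change was 0.08 to 0.67 in CTCF0 and -0.02 to 0.79 in Cp190KO. In CTCF0, same-numbered libraries were not more alike than others. Their deviations had correlations of -0.50 to -0.16, against -0.27 to 0.54 for libraries of different number. In Cp190KO the values were -0.01 to 0.48, against -0.34 to 0.34. With 3 libraries per group, whether the numbers pair the libraries is not settled there. With the replicate number as a block, DE genes were 145, 89 and 60 in the 3 comparisons, and with the block and the length offset 131 in CTCF0 and 75 in the difference. *Ork1* then had an adjusted p of 0.0588 with both, so 0 channel genes were called in CTCF0, and 0.0469 with the block alone.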
